A study of Mus musculus with 4 samples.

Results

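Heat shock chaperones are the proteins that bind unfolded or newly made polypeptides and help them fold, and 10 of their genes were followed in mouse T cells that are labelled as regulatory T cells. The genes were chosen by name: Hspa1a, Hspa1b, Hsph1, Dnajb1 and Hsp90aa1 were taken as inducible members, and Hspa8, Hsp90ab1, Dnaja1, Hspd1 and Hspe1 as constitutive members. Each of the 10 symbols matched 1 of the 50600 genes counted. The choice was made with levels from these same libraries known, so the levels below are a description and carry no test.

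RNA was measured in 4 libraries of primary cells of the C57BL/6NJ mouse strain, biological replicates 1 to 4, which all carry the cell type label regulatory T cell. The labels name 4 biosamples but 1 donor record, leave sex and age open and cite a protocol for differentiating CD4 T cells. Each file's column name holds the word activated beside a mark of 0 h. There is no second condition, so the comparisons are between genes within a library and between libraries. The p-values below speak of how far these 4 samples differ, and that may be technical or lie in the animals.

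Chaperones of the HSP70 family hold short exposed stretches of a client protein and release them in a cycle driven by ATP. J-domain proteins bring clients to HSP70 and start its ATP hydrolysis, exchange factors such as HSP110 reset it, and HSP90 completes the folding of kinases and receptors. In the mitochondrion a separate barrel of HSP60 with its HSP10 lid folds imported proteins. Under heat and other stress that unfolds proteins, the transcription factor HSF1 binds heat shock elements, which are repeats of the letters GAA and their complement TTC in alternating direction, and raises the inducible genes. T cells also raise chaperones when they are activated and grow.

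Total gene counts were between 23000465 and 62090744 per library, a 2.70-fold range, with replicates 2 and 4 the deep ones. The pan T cell genes Cd3e (485 ± 20.1 TPM) and Cd4 (1067 ± 31.4 TPM) were abundant, while Foxp3, the factor that defines regulatory T cells, lay at 8.28 ± 0.867 TPM (SD, n = 4). TPM, the unit used here, is fragments per exon base scaled to the same sum in each library. Detected means at least 1 TPM in every library. Of 6 regulatory T cell markers, 5 lay below the 33.3 TPM median of detected protein-coding genes. Like Foxp3, Il2ra (5.52 ± 2.76 TPM), Ctla4 (7.77 ± 0.959 TPM), Ikzf2 (1.34 ± 0.194 TPM) and Nrp1 (1.29 ± 0.173 TPM) lay below that median, and Tnfrsf18 (107 ± 3.805 TPM) was the exception. The T cell markers go with the label, and these levels put its regulatory part in doubt. Of the 6 regulatory T cell markers 1, Il2ra, was called variable between libraries, at 6.22, 3.63, 9.13 and 3.11 TPM in replicates 1, 2, 3 and 4. All 5 B cell markers were called variable between libraries, where 1.13% of all genes tested were. The summed level of these B cell markers was 36.6, 23.5, 26.9 and 10.9 TPM in replicates 1, 2, 3 and 4. Xist, the non-coding RNA of the inactive X chromosome, had 140.9 and 148 TPM in replicates 1 and 2, against 0.460 and 0.271 TPM in replicates 3 and 4. The libraries thus differ sharply on this gene and may not all come from 1 animal, although the labels name 1 donor record.

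Together the 10 chaperone genes reached 3533.7, 3256.5, 3185.7 and 4342.2 TPM in replicates 1, 2, 3 and 4, a mean of 3579.5 ± 530.1 TPM (SD, n = 4), with replicate 4 the highest. In RNA from a mixed pool, fewer cells that express a gene and less RNA per cell cannot be told apart. The inducible members made up 12.2% ± 0.717 of this sum and the constitutive members 87.8% ± 0.717. Hsp90ab1 and Hspa8 alone held 78.3% ± 0.551 of it. By mean TPM the order was Hsp90ab1, Hspa8, Dnajb1, Hsp90aa1, Hspd1, Hspe1, Hsph1, Dnaja1, Hspa1b and Hspa1a. Within libraries this order held in 4 of 4 for every pair of neighbours except Hsp90aa1 over Hspd1 (2 of 4) and Hspd1 over Hspe1 (3 of 4), whose places are not separated.

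**Figure D1:**
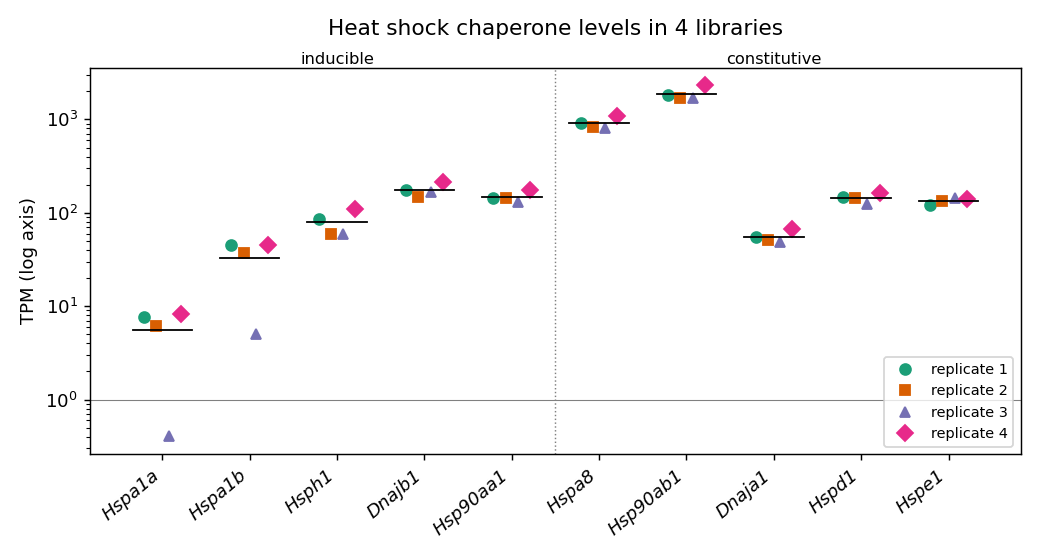
TPM of each chaperone gene on a log axis, 1 symbol per library, with the mean over the 4 libraries as a horizontal line. Inducible genes stand left of the dotted line and constitutive genes right of it, and the grey line marks 1 TPM. Hspa1a and Hspa1b in replicate 3 stand far below the other libraries, and replicate 4 is the highest library for every gene except Hspe1.

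Hspa1a and Hspa1b code for the stress-inducible HSP70 and were the scarcest of the 10. On the mouse build mm10 both lie on the minus strand of chromosome 17, Hspa1a (ENSMUSG00000091971.3) at 34969190 to 34972156 and Hspa1b (ENSMUSG00000090877.3) at 34956436 to 34959238, with 9951 bases between them. Each gene is a single exon. The RefSeq windows from 250 bases before to 50 bases after their start sites (GRCm38.p6, minus strand, chr17:34972107-34972406 for Hspa1a and chr17:34959189-34959488 for Hspa1b) are shown because both genes moved together between libraries, and they were identical at 296 of 300 aligned positions (98.7%). Capitals mark GAANNTTC or TTCNNGAA, a pair of heat shock repeats.
Hspa1a: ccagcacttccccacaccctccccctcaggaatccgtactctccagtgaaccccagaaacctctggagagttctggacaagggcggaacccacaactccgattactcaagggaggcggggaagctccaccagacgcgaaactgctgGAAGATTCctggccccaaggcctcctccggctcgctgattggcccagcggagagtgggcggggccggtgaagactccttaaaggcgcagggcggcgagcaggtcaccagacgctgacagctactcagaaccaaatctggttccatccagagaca
Hspa1b: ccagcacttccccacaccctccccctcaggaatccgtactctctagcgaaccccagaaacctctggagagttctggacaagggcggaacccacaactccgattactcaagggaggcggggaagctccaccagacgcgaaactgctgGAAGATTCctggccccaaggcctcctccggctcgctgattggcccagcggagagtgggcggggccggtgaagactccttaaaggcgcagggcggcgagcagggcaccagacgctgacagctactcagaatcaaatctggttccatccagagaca
Both windows held GAANNTTC once, 104 bases before the start site, beside 3 GC boxes (GGGCGG, either strand) and 1 CCAAT box (CCAAT, either strand). Among 32544 RefSeq windows of this length, 7.89% held GAANNTTC, 35.9% a GC box and 37.4% a CCAAT box. A longer heat shock element, GAA, TTC and GAA with any 2 letters between them, on either strand, was not among these letters.

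Hspa1b had 45.0, 37.0, 5.08 and 45.6 TPM in replicates 1, 2, 3 and 4. Replicate 3 was the low one, at 0.119 of the mean of the others. Its 95 fragments there have an exact 95% Poisson interval of 4.11 to 6.21 TPM, which covers counting error only and lies below the 35.3 to 38.8 TPM of replicate 2. Hspa1a followed at 7.61, 6.17, 0.404 and 8.18 TPM. Replicate 3 was again the low library, at 0.0552 of the mean of the others, on 8 fragments (0.174 to 0.796 TPM). The other 3 libraries lay close together for both genes. Hspa1a was thereby the only member below 1 TPM in any library, so 9 of the 10 were detected in all 4. Of all protein-coding genes, 45.7% were detected.

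The expressed neighbours of the pair were level across libraries. Within 50 kb, 8 other protein-coding genes are annotated, of which 4 had a mean of at least 1 TPM, and in replicate 3 these stood at 0.951 to 1.03 of the mean of the other libraries. Lsm2, a subunit of an RNA-binding ring, had 21.6, 23.0, 20.8 and 20.98 TPM, and Neu1, a lysosomal sialidase, 87.4, 87.8, 87.7 and 82.8 TPM. The third HSP70 gene of the cluster, Hspa1l, which in the mouse is a testis gene, had 2 fragments, both in replicate 4. These neighbours were chosen after the values of the pair had been seen.

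**Figure D2:**
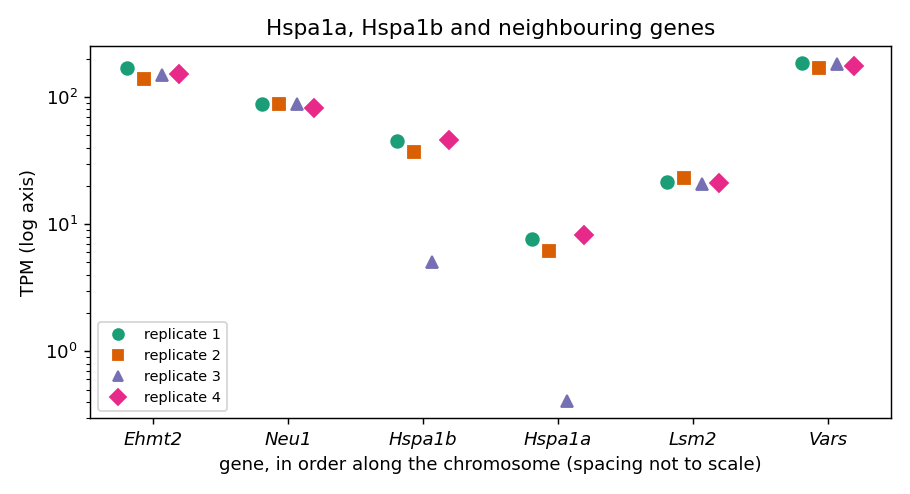
TPM on a log axis of Hspa1b, Hspa1a and the 4 neighbouring genes with a mean of at least 1 TPM, in their order along chromosome 17, 1 symbol per library. Replicate 3 is far below the other libraries at Hspa1b (5.08 TPM) and Hspa1a (0.404 TPM), and at 0.951 to 1.03 of their mean at the neighbours.

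Hspa8, the constitutive HSP70 of the cytosol, lies on chromosome 9, 40800984 to 40810087 (ENSMUSG00000015656.17). It had 915.5, 825.3, 806.4 and 1093.9 TPM in replicates 1 to 4, and 98.9% of detected protein-coding genes lay below it. Replicate 4 was the high library here, and replicate 3, which was far down for the inducible pair, was close to replicate 2. Within each library the log2 ratio of Hspa1a plus Hspa1b to Hspa8, on TPM plus 0.1, was -4.12, -4.25, -7.17 and -4.34, so the inducible HSP70 message was the lesser one in every library and most so in replicate 3. Its mean was -4.97 ± 1.47 (SD, n = 4), and -4.24 without replicate 3.

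Hsph1, which codes for the HSP110 exchange factor of HSP70, lies on chromosome 5, 149614287 to 149636376 (ENSMUSG00000029657.15). It had 85.1, 59.2, 59.7 and 111.02 TPM in replicates 1, 2, 3 and 4, with replicate 4 high, replicate 1 in the middle and replicates 2 and 3 nearly alike. The range was 1.88-fold, wider than that of any member outside the inducible HSP70 pair. Its log2 ratio to Hspa8 was -3.57 ± 0.24 (SD, n = 4), and -2.81 without a length correction. The RefSeq window of its start (minus strand, chr5:149636266-149636565) is shown because it holds the longer element of 3 repeats on the reverse strand, 16 bases into the transcript, and a further TTCNNGAA at 54 bases before the start. Capitals mark the repeats.
Hsph1: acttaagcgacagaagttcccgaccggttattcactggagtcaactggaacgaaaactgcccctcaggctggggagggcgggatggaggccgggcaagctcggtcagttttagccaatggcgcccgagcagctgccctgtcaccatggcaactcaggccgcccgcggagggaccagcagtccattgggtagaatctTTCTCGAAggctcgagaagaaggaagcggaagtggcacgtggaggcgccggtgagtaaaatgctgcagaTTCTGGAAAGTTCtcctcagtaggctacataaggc
Of the 32544 windows, 0.608% held the element of 3 repeats on either strand and 8.55% held TTCNNGAA.

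The J-domain proteins Dnajb1 and Dnaja1 are HSP40 partners of HSP70. Dnajb1 (chromosome 8, 83608193 to 83612653, ENSMUSG00000005483.10), the heat-inducible one, had 175.5, 145.9, 165.5 and 211.3 TPM in replicates 1 to 4. Dnaja1 (chromosome 4, 40722150 to 40737149, ENSMUSG00000028410.13) had 55.2, 50.5, 48.8 and 66.7 TPM. Replicate 4 was high for both. This was the single pair in which the inducible gene exceeded its constitutive partner, with a log2 ratio of 1.65 ± 0.10 (SD, n = 4), positive in 4 of 4 libraries. The size rests on the length: the exon bases of Dnaja1 number 8629 and those of Dnajb1 3204, and without a length correction the ratio was 0.23. No pair of repeats and no longer element was among the letters of the 2 Dnajb1 windows, and 1 of 3 Dnaja1 windows held GAANNTTC.

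The HSP90 pair showed the reverse balance. Hsp90aa1 (chromosome 12, 110690605 to 110702728, ENSMUSG00000021270.13), the inducible form, had 142.4, 145.8, 129.02 and 174.8 TPM in replicates 1 to 4. Hsp90ab1 (chromosome 17, 45567775 to 45573271, ENSMUSG00000023944.14), the constitutive form, had 1839.7, 1706.5, 1703.8 and 2327.8 TPM and ranked 53 among all genes. Replicate 4 was high for both, and the other libraries were close together. The log2 ratio of Hsp90aa1 to Hsp90ab1 was -3.67 ± 0.09 (SD, n = 4), so the constitutive form was 12.8-fold higher, with little spread between libraries. Many Hsp90aa1 words are shared with a near copy, and per unshared 50-base word the ratio was -2.47.

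Hspd1 and Hspe1 code for HSP60 and its HSP10 lid and stand head to head on chromosome 1. Hspd1 (ENSMUSG00000025980.14) lies on the minus strand at 55077835 to 55088243 and Hspe1 (ENSMUSG00000073676.4) on the plus strand at 55088132 to 55091307, so their start regions overlap by 112 bases, which strand-specific counting keeps apart. The start window of Hspe1 (plus strand, chr1:55087898-55088197) is shown because it covers the stretch where the pair meet and holds an unbroken run of 4 alternating repeats, in capitals, which gives 2 overlapping matches to the element of 3.
Hspe1: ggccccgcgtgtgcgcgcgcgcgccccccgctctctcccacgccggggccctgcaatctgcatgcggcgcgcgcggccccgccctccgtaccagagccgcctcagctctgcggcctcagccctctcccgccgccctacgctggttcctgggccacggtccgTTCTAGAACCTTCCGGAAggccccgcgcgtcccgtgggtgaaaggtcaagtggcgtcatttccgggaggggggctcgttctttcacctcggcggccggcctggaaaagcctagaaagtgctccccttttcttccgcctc
One of the Hspd1 start windows covers the same run on the other strand. Hspd1 had 147.3, 145.8, 123.1 and 163.2 TPM in replicates 1 to 4, with replicate 4 high and replicate 3 low. Hspe1 had 120.3, 134.4, 143.8 and 139.6 TPM, with replicate 1 low and the other 3 close together. The log2 ratio of Hspe1 to Hspd1 was -0.10 ± 0.23, which is within its spread, and it was positive in replicate 3 alone. With the longest annotated transcript as the length it was 0.39.

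**Figure D3:**
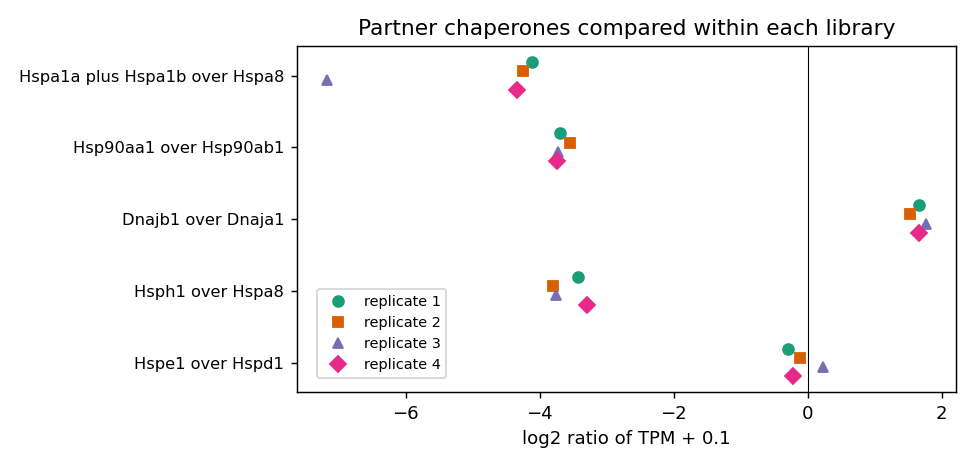
Log2 ratio of TPM plus 0.1 between partner chaperones, 1 symbol per library. Values left of the vertical line at 0 mean that the first gene named is the lower one. Hspa1a plus Hspa1b over Hspa8 stands at -7.17 in replicate 3 and between -4.34 and -4.12 elsewhere, whereas the 4 libraries lie close together for Hsp90aa1 over Hsp90ab1.

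The members were high in replicate 4, and Hspa1a and Hspa1b were low in replicate 3. The measure used here is log2 CPM, a gene's share of the library's counts scaled by the TMM method, minus the gene's own mean over the 4 libraries. Replicate 4 was the highest library for 9 of the 10 members, where 20.5% of all 12554 genes tested had their highest value. It stood 1.22 above the mean for Hspa1a, 0.90 for Hspa1b, 0.57 for Hsph1, 0.34 for Hsp90ab1, 0.32 for Dnajb1, 0.31 for Dnaja1, 0.30 for Hspa8, 0.28 for Hsp90aa1 and 0.21 for Hspd1. The exception was Hspe1, at 0.08 and highest in replicate 3. The count of 9 was the same in TPM, in CPM without scaling and in TPM over nuclear non-ribosomal genes. Neither replicate 4 nor a mark of 0.2 was part of the planned comparisons, so such counts describe these values and are no test. All 9 were at least 0.2 above their mean in replicate 4. Of all genes tested, 5.06% were both highest there and at least 0.2 above their mean. For Hspa1a and Hspa1b the low replicate 3 lies in that mean. Against the mean of replicates 1, 2 and 4 alone, replicate 4 stood 0.20 above for Hspa1a, 0.14 for Hspa1b and 0.46 for Hsph1. On that footing, chosen after seeing the data, replicate 4 was the highest of the 3 for all 10 members (29.9% of all genes tested). It was at least 0.2 above for 7 of them, where 6.56% of all genes tested were both highest there and at least 0.2 above. The deviation of replicate 3 from the mean of all 4 libraries was -3.05 for Hspa1a and -2.28 for Hspa1b, against -0.34 for Hsph1, -0.05 for Dnajb1 and -0.18 for Hsp90aa1. Replicate 3 was the lowest library for 5 of the 10 members, where 22.8% of all genes tested had their lowest value, and for 7 in TPM.

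**Figure D4:**
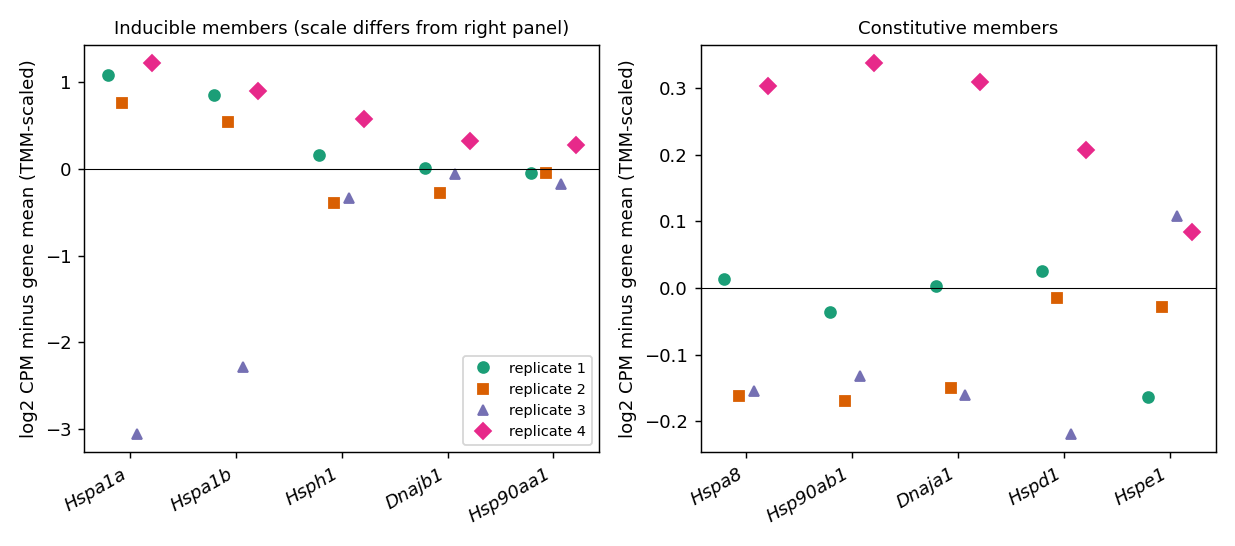
TMM-scaled log2 CPM minus the gene's mean over 4 libraries for the inducible (left) and constitutive genes (right), 1 symbol per library, where the vertical scales of the panels differ. Replicate 4 is highest for every gene except Hspe1, and replicate 3 reaches -3.05 for Hspa1a and -2.28 for Hspa1b.

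To ask which genes spread more than others of like abundance, an intercept-only edgeR fit over all genes was used, with the residual deviance at the trended dispersion and Benjamini-Hochberg adjustment. It called 142 of 12554 genes variable between libraries (1.13%) and 4 of the 10 members, all inducible. On this scale Hspa1b had an adjusted p of 3.6e-55 in edgeR with a 9.05-fold range, and Hspa1a one of 3.1e-16 with a 19.3-fold range. Hsph1 was called with an edgeR adjusted p of 3.6e-10 over a 1.95-fold range and Dnajb1 with one of 0.045 over a 1.51-fold range. Hsp90aa1 (edgeR adjusted p 0.443) and the 5 constitutive genes were not called. Among these Dnaja1 came closest, with an edgeR adjusted p of 0.086, and Hspe1 stood at 1. The genes were chosen with such results known, so the calls describe these libraries, and whether inducible and constitutive genes differ in spread was not tested.

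Some of these calls rest on single libraries. Without replicate 3, Hspa1a and Hspa1b were no longer called, with edgeR adjusted p values of 1 and 0.918, and 2 members, Hsph1 and Dnajb1, were called. Without replicate 4, 2 members, Hspa1b and Hsph1, were called, and Dnajb1 stood at 1. Dnajb1 also lost its call without replicate 1 or replicate 2, with edgeR adjusted p values of 0.105 and 0.807, and Hspa1a was not tested without replicate 2 or replicate 4. With all libraries, Dnajb1 was not called by total count alone (edgeR adjusted p 0.0759), with no filter (edgeR adjusted p 0.119) or by limma (adjusted p 0.269). Hsph1 was called in all of these fits and in those with other scaling, filter or tool. With the dispersion trend of DESeq2, Hspa8, Hsp90ab1 and Dnaja1 were called as well, 7 in all, and with limma 3 were called.

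Other measures that differed between libraries, or could, were set beside the chaperones. The immediate early genes, which rise within minutes of cell handling or receptor signals, had none of 12 tested genes called variable. Only 1.13% of all genes tested were called. The summed level of the immediate early genes was 2051.7, 1998.8, 2176.2 and 2024.6 TPM in replicates 1 to 4, highest in replicate 3. Jund (520.3 ± 29.3 TPM), Btg2 (359 ± 16.6 TPM) and Zfp36 (329.6 ± 8.40 TPM) led them and Ier3 (0.171 ± 0.0750 TPM) was lowest. The summed B cell markers given above were lowest in replicate 4, where the chaperones were highest, and their part in the result was not tested. The libraries low in Xist were replicates 3 and 4, which stood on opposite sides for Hspa1a and Hspa1b. Any link of Xist to the chaperones was not tested. Replicates 2 and 4 had nearly the same depth, at 62090744 and 61943411 counts. The part of depth in the chaperone values was not tested.

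The other genes of the chaperone system came from 10 lists of 127 distinct genes. Of these, 110 were detected, where 45.7% of all protein-coding genes were, and 6 had no fragment. The median of the mean levels of all 127, detected or not, was 41.7 TPM. That of detected protein-coding genes was 33.3 TPM, and that of all protein-coding genes, detected or not, 0.379 TPM. Only 2 of the 113 tested were called variable, both HSP90 co-chaperones, a share near the 1.13% of all genes. In replicate 4, 43 of the 113 had their highest value, where 20.5% of all genes tested did. Stip1, the adaptor that hands clients from HSP70 to HSP90, had 270.9, 219.8, 218.4 and 338.7 TPM in replicates 1, 2, 3 and 4, with an edgeR adjusted p of 3.7e-04. Ahsa1, which activates the ATPase of HSP90, had 272.4, 239.97, 253.2 and 330.4 TPM, with an edgeR adjusted p of 0.031. Both were high in replicate 4, as the chaperones were. Without replicate 4 neither was called.

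Of the 21 HSP90 co-chaperones, all were detected, 11 were highest in replicate 4 and 6 of them at least 0.2 above their own mean there. Of all genes tested, 20.5% were highest in replicate 4, and 5.06% were both highest there and at least 0.2 above their own mean. Besides Stip1 and Ahsa1 the list was led by Fkbp8 (276 ± 15.6 TPM), an anchored immunophilin, with Rpap3 (29.7 ± 1.65 TPM) lowest. The immunophilin Fkbp4 had 227.8, 188.5, 211.6 and 268.1 TPM in replicates 1 to 4 and was not called (edgeR adjusted p 0.107). It was named after its values were seen. The median deviation in replicate 4 was 0.05 for this list, 0.57 for the inducible members, 0.30 for the constitutive members and -0.00049 over all genes tested.

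Partners of HSP70 were mostly detected. None was called variable between libraries, where only 1.13% of all genes tested were. The exchange and cofactor list had 11 of 12 genes detected, with the BAG-domain protein Bag6 (198 ± 12.8 TPM), the ubiquitin ligase Stub1 (192 ± 9.57 TPM) and Bag1 (148 ± 2.91 TPM) highest and Bag2 (1.24 ± 0.352 TPM) lowest, and 7 of 12 were highest in replicate 4. All 35 other J-domain genes were detected. Dnajc7 (191 ± 14.4 TPM), Dnaja2 (172 ± 11.3 TPM) and Dnajc5 (137 ± 4.33 TPM) led them, Dnajb13 (3.02 ± 0.367 TPM) was lowest, and 9 of the 35 were highest in replicate 4. The share of all genes tested that were highest there was 20.5%. Of the other HSP70 and HSP110 genes 8 of 11 were detected, and 3 of the 9 tested were highest in replicate 4. Here Hspa5 (219 ± 11.6 TPM) of the endoplasmic reticulum, Hspa9 (183 ± 9.95 TPM) of the mitochondrion and the HSP110 relative Hspa4 (122 ± 7.41 TPM) were highest and Hspa1l (0.0113 ± 0.0226 TPM) lowest.

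Chaperonins were abundant and small heat shock proteins were scarce. Of the cytosolic chaperonin and prefoldin genes, which fold actin and tubulin, 14 of 15 were detected, from Cct2 (421.5 ± 12.9 TPM), Cct5 (374 ± 9.98 TPM) and Pfdn5 (335 ± 10.4 TPM) down to Cct6b (0.532 ± 0.225 TPM). In replicate 4, 8 of the 14 tested were highest, where 20.5% of all genes tested were, with a median deviation of 0.08. The organelle forms of HSP90, Hsp90b1 (248 ± 23.6 TPM) and Trap1 (173 ± 2.29 TPM), were both detected, and 1 of them was highest in replicate 4. Of 10 genes listed by name as small heat shock proteins 2 were detected, Hspb11 (13.7 ± 2.39 TPM) and Hspb6 (6.13 ± 0.650 TPM). Hspb9 (0.615 ± 0.556 TPM) came next and 5, Cryaa among them, had no fragment. Of the 2 genes of that list tested, 0 were highest in replicate 4, with a median deviation of -0.17. All 8 genes of mitochondrial proteases and HSP60 partners were detected, with Lonp1 (125 ± 6.41 TPM), Afg3l2 (79.7 ± 4.48 TPM) and Clpp (74.3 ± 6.07 TPM) highest and Clpb (11.4 ± 0.944 TPM) lowest. Of these 8, 3 were highest in replicate 4.

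**Figure D5:**
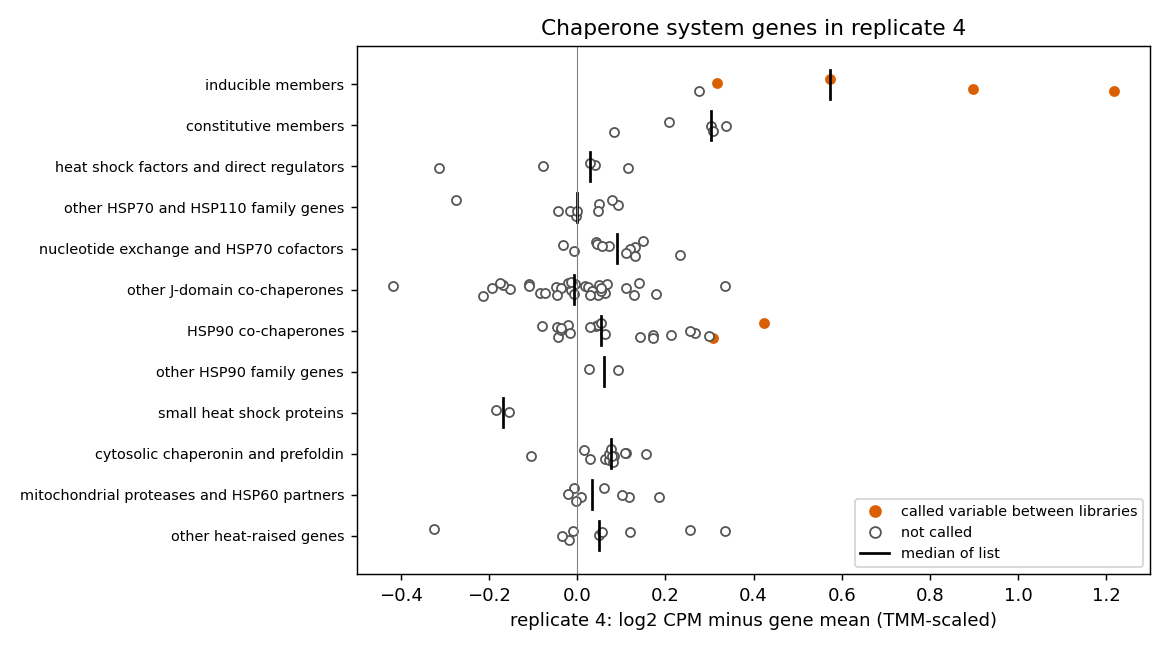
Deviation of each tested gene in replicate 4 from its own mean over the 4 libraries (TMM-scaled log2 CPM), by list from top to bottom, with filled symbols for genes called variable and a bar at each list's median. The medians of the members stand at 0.57 (inducible) and 0.30 (constitutive), and among the other lists only Stip1 and Ahsa1 of the HSP90 co-chaperones are called.

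The transcription factor Hsf1 was well expressed and close between libraries, at 226.9, 193.0, 198.2 and 222.7 TPM in replicates 1, 2, 3 and 4. Hsbp1 (93.9 ± 4.55 TPM), a small HSF1-binding protein, and Hsf2 (4.81 ± 0.434 TPM) followed, and Hsf3 had no fragment in any library. Of the 7 genes in that list 4 were detected, none of the 5 tested was called variable and 1 was highest in replicate 4. Of 12 other genes known to rise in heat 9 were detected, with the ubiquitin gene Ubb at 533 ± 19.5 TPM and Ddit3 at 43.97 ± 3.61 TPM. None of the 9 tested was called, and 3 were highest in replicate 4. Of all genes tested, 1.13% were called and 20.5% were highest in replicate 4. Such levels say nothing of HSF1 activity.

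Genes outside the 10 were ranked by how near their profile over the 4 libraries lay to the mean profile of the 5 inducible members, which was 0.41, 0.12, -1.18 and 0.66 log2 units in replicates 1, 2, 3 and 4. The value of replicate 3 comes mostly from Hspa1a and Hspa1b, and the median of the 5 there was -0.34, so no single member has this profile. Among 100 genes called variable with a mean of at least 5 CPM, the nearest by root mean square distance was Arhgap18, at 0.23. It had 8.74, 8.27, 2.59 and 7.43 TPM in replicates 1 to 4 and was low in replicate 3. Gm26917 (0.46), Coro2a (0.47), Art2b (0.49) and Stip1 (0.55) came next, and of these Coro2a was not highest in replicate 4. With 4 libraries such a ranking describes these samples only.

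The counts leave out fragments that align to several places, and several members have near copies. Of all 50-base words in their transcripts, 66.3% for Hspa1a and 62.3% for Hspa1b also occur in transcripts of another gene, 58.8% and 62.3% in each other. The share was 47.5% for Hsp90aa1, 42.1% for Hspd1, 39.4% for Hspa8, 22.8% for Hspe1, 20.6% for Dnaja1, 3.44% for Hsp90ab1, 0.412% for Dnajb1 and 0% for Hsph1, and the main partners were the pseudogenes Gm15459 for Hspa8 and Gm12346 for Hsp90aa1. With 100-base words the shares were smaller, at 56.5% for Hspa1a, 49.9% for Hspa1b, 38.0% for Hsp90aa1, 28.5% for Hspa8, 23.9% for Hspd1, 16.6% for Dnaja1, 10.98% for Hspe1 and 0% for Hsp90ab1. These shares include words on the opposite strand and words of genes that overlap in place, so they can overstate what is left out. Fragments that lie wholly in words with a copy elsewhere align to several places and were not counted. The levels are lower bounds in that respect, and the split between Hspa1a and Hspa1b is uncertain. Counted per 1000 unshared words of the longest transcript, Hspa8 had 762 ± 114 CPM and Hsp90ab1 690.0 ± 113 CPM (SD, n = 4), the reverse of their order in TPM, with Hspa8 the higher in 4 of 4 libraries. Dnajb1 (54.7 ± 9.03 CPM) there stood below Hsp90aa1 (124 ± 16.6 CPM), Hspd1 (83.6 ± 9.47 CPM) and Hspe1 (67.7 ± 5.83 CPM), though above them in TPM. Hspe1 exceeded Dnajb1 in 4 of 4 libraries. On the same scale Hspa1b had 34.6, 28.2, 3.98 and 35.6 CPM in replicates 1 to 4, still low in replicate 3. The Hspa1b to Hspa1a log2 ratio, on TPM plus 0.1, was 2.55, 2.56, 3.36 and 2.46 in replicates 1 to 4. In replicate 3 it was 3.65 with nothing added and 2.11 with 1 TPM added, so its place among the libraries is set by the amount added.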

How the data were processed

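Raw fragment counts per gene were deposited for 4 libraries of 1 group, beside each gene's exon length. The header line of each file records featureCounts 1.4.6-p4 with GENCODE M13 exons, paired ends that both aligned and strand setting 2, and input named for STAR. It sets no option for fragments that hit several places or genes, which that tool then skips. The labels give mm10. No source used here states the read length.

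The members and lists were chosen with earlier results of these data known. TPM was computed from counts and exon lengths. Gene symbols were taken from GENCODE M21 and found for 50376 of 50600 genes (99.6%). RefSeq start windows (GRCm38.p6) were found for 7 members and not for Hspa8, Hsp90aa1 and Hsp90ab1. For spread between libraries, edgeR 4.0.16 under R 4.3.3 was used with filterByExpr, TMM scaling and glmQLFit on an intercept alone. The residual deviance at the trend was referred to a chi-square distribution (df 3), and genes passed at an adjusted p below 0.05. On counts simulated for this test over 12554 genes, it recovered 0 of 50 genes moved 1.25-fold in 1 library, 17 of 50 at 1.5-fold, 41 of 50 at 2-fold and 48 of 50 at 4-fold, with 3 false calls. Every simulated gene had the trend's own dispersion, so the 3 false calls say nothing of the rate among real genes. Most members spread by less than 1.5-fold, which the test seldom recovers. DESeq2 1.42.0 and limma 3.58.1 gave alternatives, beside other scalings, filters, lengths and leaving out each replicate. Genes named by rule are all members, the 3 highest and the lowest of each pathway and context list, those called variable, Foxp3, Cd3e, Cd4 and the 5 nearest to the inducible profile, except 1 list gene that is not reported here. Fkbp4, Xist, Lsm2, Neu1 and the other regulatory T cell markers were named after their values were seen. The chi-square statistic per degree of freedom between counts of any pair of libraries was at least 6.71, so none repeats another.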

Additional observations from a re-analysis of the deposited data

Results flagged for a closer look

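Among 30 sets of 4 library values examined, 2 had 1 library whose gap to the nearest other, as a share of the range, was above Dixon's 95% critical value, where chance gives about 1 in 20 sets. The log2 ratio of Hspa1a plus Hspa1b to Hspa8 was -7.17 in replicate 3, against -4.34 to -4.12 in the other libraries. The log2 ratio of Hspa1b to Hspa1a, on TPM plus 0.1, was 3.36 in replicate 3, against 2.46 to 2.56 in the others, and rests there on 8 fragments of Hspa1a. With 1 TPM added replicate 3 was the lowest, at 2.11 against 2.34 to 2.42, and with nothing added it was 3.65, so the direction of this gap depends on the amount added. Both sets hold the same 2 genes and the same library, so they are not separate observations.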

How the results depend on the processing

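No paired analysis was possible because the samples form 1 group. The summed level of the 10 chaperones (3579.5 TPM) was 4784.4 over nuclear non-ribosomal coding genes and 1882.1 CPM per 1000 unshared 50-base words, an alternative chosen after seeing the data, and ran from 3325.3 to 3710.8 TPM when 1 replicate was left out. The log2 ratio of Hsp90aa1 to Hsp90ab1 (-3.67) was -3.28 without a length correction and -2.47 per unshared word, that of Dnajb1 to Dnaja1 (1.65) was 0.23, 0.66 and, with the longest transcript, 1.13, and that of Hsph1 to Hspa8 (-3.57) was -2.81 without a length correction and -4.49 per unshared word. The ratio of Hspe1 to Hspd1 (-0.10) was -0.94 without a length correction and turned to 0.39 with the longest transcript. Leaving out 1 replicate gave -5.26 to -4.24 for Hspa1a plus Hspa1b over Hspa8. Without replicate 2 or replicate 4, Hspa1a was not among the genes that passed the count filter. The 4 members called variable were 7 with DESeq2 and 2 to 3 with 1 replicate left out (2 without replicates 2, 3 and 4). The counts for replicate 4 were not among the planned comparisons. Without replicate 3, an alternative chosen after seeing the data, the 9 members highest in replicate 4 were 10. The 9 at least 0.2 above their mean there were then 7. Over all genes the count of 142 was 88 with no filter, 20 with limma, 74 at a threshold of 0.01 and 60 to 85 with 1 replicate left out. The 2 pathway genes called were 1 with no scaling factor, with no filter and at 0.01, 0 with limma, and 0 to 2 with 1 replicate left out. These changes follow partly from fewer samples or genes tested, and otherwise the cause was not tested. Depth limits Hspa1a most, with 8 fragments in replicate 3.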
